A study of Mus musculus with 16 samples.

Results

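Mature microRNAs of the miR-17-92 cluster were followed across 4 genotype groups of splenic type 1 conventional dendritic cells (cDC1s), the dendritic cells that take up material from dying cells and present it to CD8 T cells. The members were chosen by identifier from a count table of 853 microRNAs. They were miR-17-3p (MIMAT0000650), miR-18a-5p (MIMAT0000528), miR-18a-3p (MIMAT0004626), miR-19a-3p (MIMAT0000651), miR-20a-5p (MIMAT0000529), miR-19b-3p (MIMAT0000513) and miR-92a-3p (MIMAT0000539). All 7 members passed the filter on low counts and were among the 255 microRNAs tested. The higher level of miR-92a-3p in both deficient groups was known when the cluster was selected, so its values are given as a description without a test. Arms of the cluster other than these 7, miR-17-5p among them, were not analysed here.

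The study compared small RNA of cDC1s sorted from the spleen of C57BL6 mice, with 4 libraries in each of 4 groups. The groups were Xbp1-deficient cDC1s (Xbp1 KO), cDC1s that lacked Ire1a as well (compound-deficient, without Ire1a and Xbp1), and wild-type cDC1s of the compound line and of the Xbp1 line. Both deficient groups lacked Xbp1 and differed from each other in Ire1a, and each line had its own wild type. Every library was made from between 5000 and 50000 sorted cells with the TruSeq small RNA kit; the labels give neither the promoter that drove any deletion nor whether replicates came from separate mice. p-values therefore measure only how these samples vary, and that variation may be technical. The deleted genes are messenger RNAs and have no row in a microRNA table, so the genotypes could not be checked against them. In bulk samples, fewer cells of a type and less RNA per cell cannot be told apart.

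IRE1 is an endoplasmic reticulum sensor whose ribonuclease activity splices Xbp1 messenger RNA, and the spliced form encodes the transcription factor XBP1. The same ribonuclease cuts other RNAs, and in cultured cells it has been reported to cut the precursor of miR-17. The miR-17-92 cluster is transcribed as a single primary RNA from which Drosha and then Dicer release the hairpins and their arms, so its members share transcription while each hairpin is processed and each arm is kept or lost on its own. In lymphocytes the cluster is known for promoting survival and proliferation, with the pro-apoptotic gene Bcl2l11 among its targets.

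The mature sequences are shown because the seed, bases 2 to 8 from the 5′ end and here in capitals, sets which messenger RNAs a microRNA recognises. All 7 were taken from RefSeq (GRCm38.p6), in order along the cluster.
miR-17-3p: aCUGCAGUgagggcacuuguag
miR-18a-5p: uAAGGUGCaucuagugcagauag
miR-18a-3p: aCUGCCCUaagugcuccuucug
miR-19a-3p: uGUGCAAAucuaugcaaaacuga
miR-20a-5p: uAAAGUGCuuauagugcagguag
miR-19b-3p: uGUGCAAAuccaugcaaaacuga
miR-92a-3p: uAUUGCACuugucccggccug
Among the members only miR-19a-3p and miR-19b-3p shared a seed, GUGCAAA, and over 23 bases they differed by U11C, counted from 1 at the 5′ end with the base of miR-19a-3p first. miR-18a-5p and miR-20a-5p had similar but unequal seeds. miR-92a-3p shared its seed with miR-25-3p, miR-32-5p, miR-363-3p, miR-367-3p and miR-92b-3p in the RefSeq table.

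All 6 hairpins lay on the plus strand of chromosome 14, at chr14:115043671-115044506 (GRCm38), a span of 836 bp inside exon 2 of the noncoding host gene Mir17hg (GENCODE vM21; chr14:115043271-115046727). miR-17-3p came from Mir17 at chr14:115043721-115043742, miR-19a-3p from Mir19a at chr14:115044048-115044070 and miR-20a-5p from Mir20a at chr14:115044183-115044205. miR-19b-3p came from Mir19b-1 at chr14:115044358-115044380 and miR-92a-3p from Mir92-1 at chr14:115044476-115044496. Identical copies of miR-19b-3p and miR-92a-3p lie on chromosome X in the paralogous cluster, in Mir19b-2 and Mir92-2, so reads of these members cannot be assigned to either locus. miR-18a-5p differed from miR-18b-5p of that paralogous cluster by 2 bases (A18U and A20U), and miR-92a-3p differed from miR-92b-3p by 2 (U10C and G21C). miR-20a-5p differed by 2 bases from miR-17-5p (U1C and U12C) and by 2 from miR-20b-5p of the paralogous cluster (U1C and U10C). A counting step that allows mismatches could therefore share reads among these pairs. The same holds for miR-19a-3p and miR-19b-3p, which differ by 1 base.

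The Mir18 hairpin is shown because it is the hairpin with both arms among the members; both arms are in capitals, miR-18a-5p first, on the plus strand of chr14:115043851-115043946.
Mir18: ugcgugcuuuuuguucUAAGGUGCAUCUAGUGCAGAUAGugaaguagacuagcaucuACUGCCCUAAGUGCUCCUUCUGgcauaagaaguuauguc

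Levels are given in CPM, the reads of a microRNA relative to the library total, with totals scaled by the trimmed mean of M values (TMM), and since each read covers an arm of 21 to 23 bases no length scaling was applied. Library totals ran from 175165 counts (compound-deficient replicate 4) to 1403393 counts (Xbp1-deficient replicate 3), and the compound line was sequenced less deeply on average, with 524042 ± 341425 counts in its deficient and 518607 ± 252471 in its wild-type libraries, against 1065596 ± 261195 and 825763 ± 322500 in the Xbp1 line (SD, n = 4 each). The members spanned a wide range of levels. miR-92a-3p averaged 49029 CPM over the 16 libraries and ranked 4 of 255, whereas miR-18a-5p averaged 35.7 CPM and ranked 166. Between them, miR-19b-3p averaged 2047 CPM (rank 48), miR-19a-3p 364 CPM (rank 80), miR-20a-5p 213 CPM (rank 96), miR-18a-3p 126 CPM (rank 108) and miR-17-3p 62.9 CPM (rank 142). The order miR-92a-3p, miR-19b-3p, miR-19a-3p, miR-20a-5p held in 16 of 16 libraries. Below it, miR-20a-5p exceeded miR-18a-3p in 15 libraries, miR-18a-3p exceeded miR-17-3p in 15, and miR-17-3p exceeded miR-18a-5p in 14, and these neighbours overlapped in their spread.

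Together the members took 5.90% ± 0.425 of all counts in Xbp1-deficient and 4.02% ± 0.154 in Xbp1-line wild-type libraries, and 6.56% ± 1.51 in compound-deficient against 4.01% ± 0.403 in compound-line wild-type libraries (SD, n = 4 each). miR-92a-3p supplied almost all of this, 95.2% ± 1.07 of the members' counts in Xbp1-deficient libraries and 93.3% ± 0.345 in their wild type, and 94.9% ± 1.74 in compound-deficient libraries and 93.3% ± 0.863 in theirs. Without it, the remaining 6 members took 0.283% ± 0.0407 of counts in Xbp1-deficient against 0.267% ± 0.0106 in Xbp1-line wild-type libraries, and 0.317% ± 0.0507 in compound-deficient against 0.266% ± 0.0331 in compound-line wild-type libraries. Those intervals of 1 SD overlapped in both lines. Most of this remainder was miR-19b-3p. It took 0.200% of counts in Xbp1-deficient and 0.198% in Xbp1-line wild-type libraries on average. In the compound line it took 0.223% in deficient and 0.194% in wild-type libraries. The remainder therefore says little about the less abundant members.

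**Figure D1:**
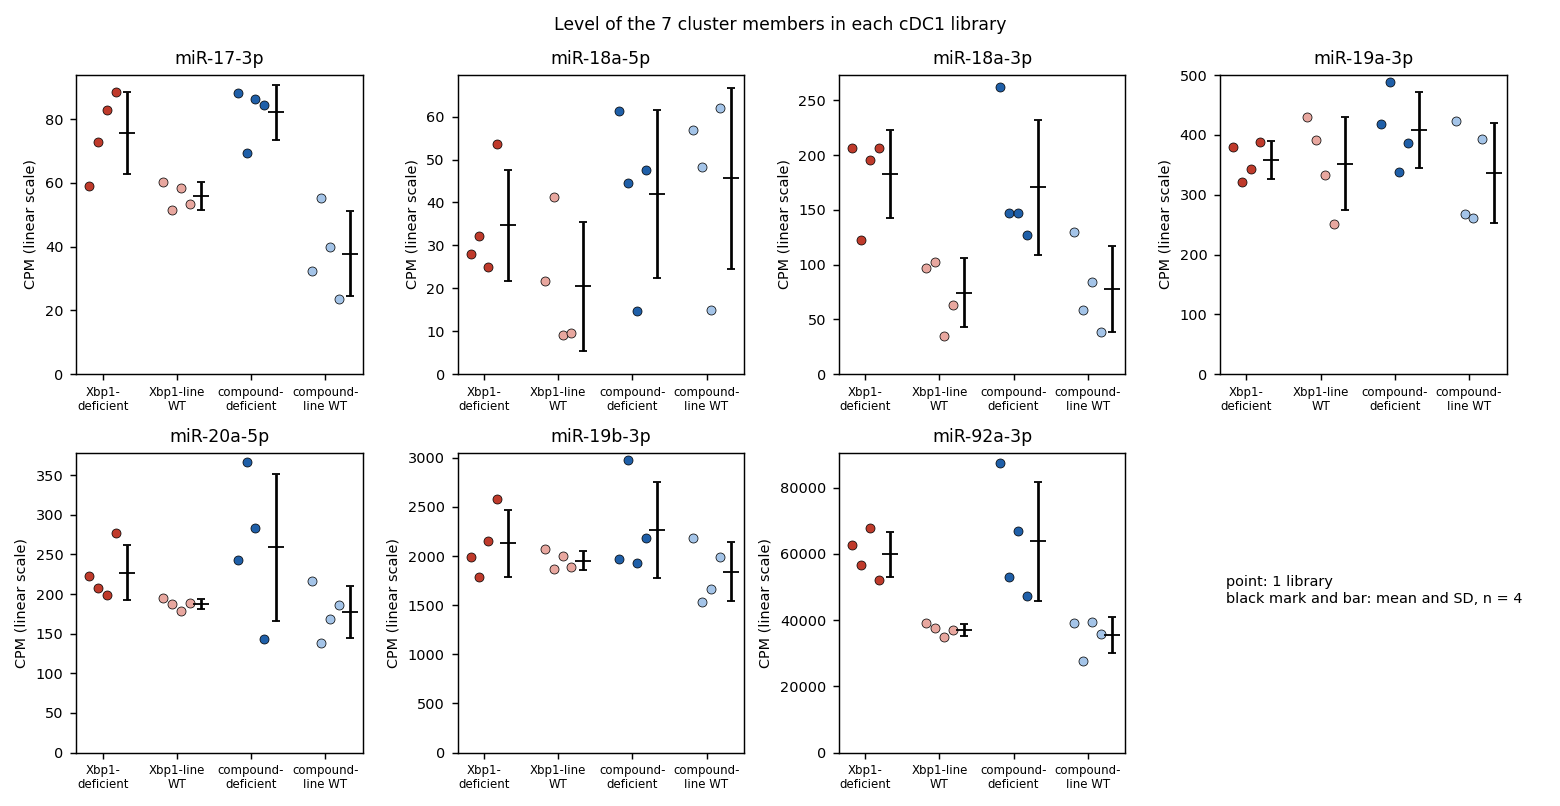
Level of each member (CPM, linear scale from 0) in every library, with the mean and SD of each group (n = 4). miR-92a-3p lay higher in every deficient library than in the wild type of either line, at 47392 to 87509 CPM in the deficient groups against 27690 to 39270 CPM in the wild types, whereas miR-19a-3p, miR-19b-3p and miR-18a-5p overlapped between groups.

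The estimated changes differed in size among the members, although no tested ratio between members passed. With 4 libraries in each group those ratio tests could hardly pass after adjustment. Averaged over both lines, miR-18a-3p and miR-17-3p rose in deficient cells, miR-92a-3p was higher, miR-20a-5p was intermediate without passing the test, and miR-19a-3p, miR-19b-3p and miR-18a-5p had small or poorly determined changes. Differences between groups were tested with edgeR's quasi-likelihood F test over all 255 microRNAs with Benjamini-Hochberg adjustment and a threshold of 0.05, and fold changes are on the log2 scale, deficient over wild type.

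miR-92a-3p is the most abundant product of the cluster in these cells and is known in endothelium for targeting the integrin gene Itga5. It had 62550, 56736, 67784 and 52161 CPM in Xbp1-deficient libraries, against 39005, 37565, 34781 and 37019 CPM in Xbp1-line wild-type libraries. In the compound line it had 87509, 53102, 67022 and 47392 CPM in deficient libraries, against 38990, 27690, 39270 and 35885 CPM in wild-type libraries. Every deficient library lay above every wild-type library in both lines. The log2 fold change was 0.69 (SE 0.16) in the Xbp1 line and 0.85 (SE 0.16) in the compound line, and the 2 changes differed by 0.16 (SE 0.23).

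Within each deficient group, miR-92a-3p followed the order of library depth. Among the Xbp1-deficient libraries the shallowest, with 783372 counts, had 52161 CPM and the deepest, with 1403393 counts, had 67784 CPM. Among the compound-deficient libraries the shallowest, with 175165 counts, had 47392 CPM and the deepest, with 978134 counts, had 87509 CPM. Neither wild-type group had this order, and over the 28 combinations of member and group the order of levels matched that of depth in 3 and ran opposite to it in 2. In a fit that held the log2 total count of each library constant, chosen after the data were seen, the log2 fold change of miR-92a-3p was 0.58 (SE 0.13) in the Xbp1 line and 0.84 (SE 0.13) in the compound line.

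miR-18a-3p, the 3′ arm of the Mir18 hairpin, had the highest fold change of the 7 in both lines. It had 207, 123, 195 and 206 CPM in Xbp1-deficient libraries (118 to 243 counts), against 97.2, 103, 35.1 and 63.0 CPM in Xbp1-line wild-type libraries (26 to 112 counts). Compound-deficient libraries had 262, 147, 147 and 127 CPM of it (24 to 244 counts), against 130, 58.7, 83.9 and 38.4 CPM in wild-type libraries of that line (13 to 78 counts). The groups did not overlap in the Xbp1 line, whereas in the compound line the highest wild-type library lay just above the lowest deficient library. The log2 fold change was 1.28 (SE 0.36, adjusted p = 0.0793) in the Xbp1 line and 1.16 (SE 0.37, adjusted p = 0.0815) in the compound line, so neither line alone passed edgeR's test. Averaged over both lines, which uses all 16 libraries, it rose by 1.22 (SE 0.26, 95% interval 0.67 to 1.76, adjusted p = 0.00349 in edgeR), and it ranked 2 of 255 by that mean change.

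miR-18a-5p, the other arm of the same hairpin, is the arm usually taken as the guide strand and was the least abundant member here. It had 28.0, 32.2, 24.9 and 53.6 CPM in Xbp1-deficient libraries (29 to 40 counts), against 21.7, 41.3, 9.11 and 9.69 CPM in Xbp1-line wild-type libraries (4 to 45 counts). In the compound line it had 61.2, 44.5, 14.7 and 47.6 CPM in deficient libraries (8 to 57 counts), against 56.9, 48.3, 15.1 and 62.1 CPM in wild-type libraries (14 to 28 counts). The groups overlapped in both lines. Its log2 fold change was 0.68 (SE 0.52, adjusted p = 0.627 in edgeR) in the Xbp1 line and -0.08 (SE 0.54, adjusted p = 0.954) in the compound line, with 95% intervals of -0.42 to 1.78 and -1.21 to 1.05. Its coefficient of variation reached 73.7% in Xbp1-line wild-type libraries, where counting alone would give 26.1%.

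Both arms are cut from the same hairpin, and a ratio of counts within a library does not depend on scaling. The log2 ratio of miR-18a-5p over miR-18a-3p was -2.41 ± 0.570 in Xbp1-deficient and -1.97 ± 0.524 in Xbp1-line wild-type libraries, a difference of -0.44 (exact two-sided permutation test, p = 0.257, adjusted p = 0.571 over 10 tests of 5 ratios in 2 lines). In the compound line it was -2.10 ± 0.818 in deficient and -0.80 ± 1.32 in wild-type libraries, a difference of -1.30 (exact permutation test, p = 0.171, adjusted p = 0.571; SD, n = 4 each). The 3′ arm outnumbered the 5′ arm on average in all 4 groups. With 4 libraries against 4 the smallest two-sided p is 0.0286, so an adjusted p under 0.05 needed most of the 10 tests at that limit. These tests could therefore hardly pass.

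miR-17-3p is the 3′ arm of the first hairpin. It had 58.9, 72.8, 82.7 and 88.4 CPM in Xbp1-deficient libraries (61 to 103 counts), against 60.4, 51.4, 58.6 and 53.3 CPM in Xbp1-line wild-type libraries (22 to 64 counts). Its levels were 88.1, 69.5, 86.3 and 84.6 CPM in compound-deficient libraries (16 to 82 counts), against 32.5, 55.2, 39.8 and 23.6 CPM in compound-line wild-type libraries (8 to 37 counts). Each compound-deficient library exceeded each of its wild types, whereas in the Xbp1 line the lowest deficient library lay within the wild-type range. It rose in the compound line by 1.09 on the log2 scale (SE 0.27, 95% interval 0.53 to 1.65, adjusted p = 0.0174 in edgeR) and had a log2 fold change of 0.43 (SE 0.25, adjusted p = 0.458) in the Xbp1 line. The difference of the 2 changes was 0.66 (SE 0.37, adjusted p = 0.639), so the lines were not shown to differ, and averaged over both it rose by 0.76 (SE 0.18, adjusted p = 0.0109).

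The compound-line call for miR-17-3p rested on few reads and was kept in only 8 of 19 alternatives. Its adjusted p was 0.0703 with upper-quartile scaling, 0.167 without the filter on low counts and 0.0579 with limma on the deposited log2 values. In edgeR on the compound line alone it was 0.111, and 0.198 with a block for the replicate number. It was 0.0697, 0.0753 and 0.0541 without compound-deficient replicate 1, 3 or 4, and 0.0771, 0.0664 and 0.0580 without compound-line wild-type replicate 1, 3 or 4. The log2 fold change stayed between 0.80 and 1.28 in these and all 19 alternatives run for that comparison.

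miR-20a-5p belongs to the miR-17 seed family, whose known targets include the cell-cycle genes E2f1 and Cdkn1a. It had 223, 208, 199 and 277 CPM in Xbp1-deficient libraries, against 194, 187, 178 and 189 CPM in Xbp1-line wild-type libraries. Its levels were 243, 367, 283 and 143 CPM in compound-deficient libraries, against 217, 138, 169 and 186 CPM in compound-line wild-type libraries. The groups did not overlap in the Xbp1 line on this scaling but did on total counts, and in the compound line the lowest deficient library lay among the wild types. The log2 fold change was 0.28 (SE 0.23, adjusted p = 0.673 in edgeR) in the Xbp1 line, 0.56 (SE 0.23, adjusted p = 0.174) in the compound line and 0.42 (SE 0.16, 95% interval 0.08 to 0.76, adjusted p = 0.135) averaged over both. The compound-line value was 0.30 without compound-deficient replicate 2 and also with upper-quartile scaling.

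miR-19b-3p and miR-19a-3p share their seed. miR-19b-3p had 1992, 1782, 2156 and 2584 CPM in Xbp1-deficient libraries, against 2067, 1864, 1998 and 1884 CPM in Xbp1-line wild-type libraries. Compound-deficient libraries had 1966, 2978, 1930 and 2188 CPM, against 2184, 1532, 1662 and 1986 CPM in compound-line wild-type libraries. The groups overlapped in both lines, with log2 fold changes of 0.12 (SE 0.16, adjusted p = 0.781 in edgeR) in the Xbp1 line and 0.30 (SE 0.16, adjusted p = 0.347) in the compound line. Without compound-deficient replicate 2 the compound-line value was 0.08, and with upper-quartile scaling it was 0.03. This member was counted at 414 reads or more in every library, and its 95% interval for the mean change was -0.02 to 0.45.

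miR-19a-3p had 379, 321, 343 and 389 CPM in Xbp1-deficient libraries, against 430, 392, 333 and 252 CPM in Xbp1-line wild-type libraries. The compound-deficient libraries had 419, 489, 338 and 386 CPM, against 423, 267, 261 and 393 CPM in compound-line wild-type libraries. The groups overlapped in both lines, and the mean change was 0.15 (SE 0.14, 95% interval -0.15 to 0.45, adjusted p = 0.607 in edgeR). The log2 ratio of miR-19a-3p over miR-19b-3p differed by -0.06 in the Xbp1 line (exact permutation test, p = 0.714) and by 0.01 in the compound line (p = 0.914), and the groups overlapped in both. A counting step that allows mismatches could share reads between these members.

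**Figure D2:**
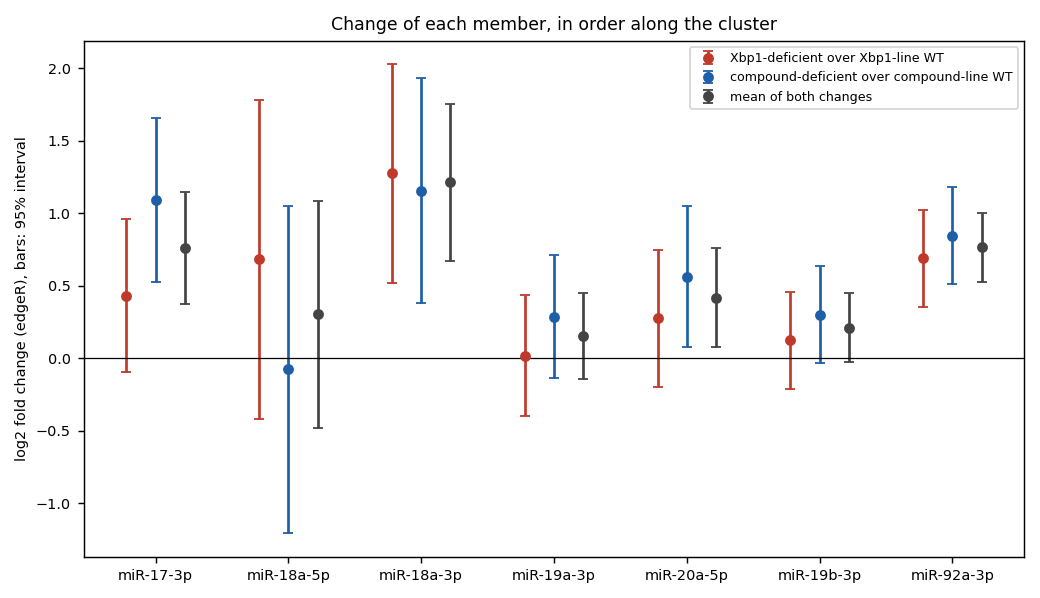
Log2 fold change of each member with its 95% interval from edgeR, in order along the cluster, for each line and for the mean of both. The mean change of miR-18a-3p (1.22), miR-92a-3p (0.77) and miR-17-3p (0.76) lay above those of miR-20a-5p (0.42), miR-18a-5p (0.30), miR-19b-3p (0.21) and miR-19a-3p (0.15).

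Of the 6 members other than miR-92a-3p, on which the cluster was selected, 0 passed edgeR's test in the Xbp1 line, where 2.35% of all 255 microRNAs did. In the compound line 1 of these 6 passed, miR-17-3p, against 5.88% of all. For the mean of both lines 2 of the 6 passed, miR-18a-3p and miR-17-3p, against 7.45% of all. The mean uses the same libraries as both single-line comparisons. Deficient and wild-type libraries did not overlap, with the deficient ones higher, for 2 of these 6 members in the Xbp1 line (miR-18a-3p and miR-20a-5p) and for 1 in the compound line (miR-17-3p), against 4.71% of all microRNAs in each line. miR-92a-3p did not overlap in either line. On CPM from total counts, a choice made after the data were seen, miR-20a-5p overlapped in the Xbp1 line and miR-18a-3p no longer overlapped in the compound line.

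Fold changes were positive for 7 of 7 members in the Xbp1 line, against 45.1% of all 255 microRNAs. The members' median there was 0.43, against -0.07 over all. In the compound line fold changes were positive for 6 of 7 members, against 52.5% of all, with medians of 0.56 and 0.04. Both counts include miR-92a-3p, whose higher level was known when the cluster was selected. Without miR-92a-3p the members' medians were 0.35 and 0.43. Members spread widely around them, over 0.02 to 1.28 in the Xbp1 line and -0.08 to 1.16 in the compound line.

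No tested member passed the test of a difference between the lines in its change. The difference of the changes ranged from -0.76 (SE 0.75) for miR-18a-5p to 0.66 (SE 0.37) for miR-17-3p, with an adjusted p of 0.639 or more in edgeR for the 6 members tested. No microRNA of the 255 passed this test (0%), with 26 at an unadjusted p under 0.05, 0 with DESeq2 and 0 with limma on voom weights.

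Set directly against each other, compound-deficient and Xbp1-deficient cells had overlapping levels of every member. The share of all microRNAs that overlapped between these groups is not given here, so this overlap is not particular to the members. miR-17-3p averaged 82.1 ± 8.56 CPM in compound-deficient and 75.7 ± 12.9 CPM in Xbp1-deficient libraries, and miR-92a-3p averaged 63756 ± 17852 CPM in compound-deficient and 59808 ± 6808 CPM in Xbp1-deficient libraries (SD, n = 4 each). miR-18a-3p averaged 171 ± 61.6 CPM in compound-deficient and 183 ± 40.4 CPM in Xbp1-deficient libraries. miR-20a-5p averaged 259 ± 93.0 CPM in compound-deficient and 227 ± 35.1 CPM in Xbp1-deficient libraries, and miR-19b-3p averaged 2266 ± 489 CPM in compound-deficient and 2129 ± 340 CPM in Xbp1-deficient libraries. Of the tested members 0 passed, against 7.45% of all microRNAs. The median of all 7 members was 0.12 and that of all microRNAs 0.13. This comparison also holds any difference between the lines.

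Between the wild types, no tested member passed the test and 0% of all 255 microRNAs did, with 24 at an unadjusted p under 0.05 and 3 with DESeq2. The largest difference was for miR-18a-5p, at 45.6 ± 21.1 CPM in compound-line and 20.5 ± 15.1 CPM in Xbp1-line wild-type libraries (log2 fold change 1.04, SE 0.54), followed by miR-17-3p at 37.8 ± 13.4 CPM in compound-line and 55.9 ± 4.25 CPM in Xbp1-line wild-type libraries (log2 fold change -0.54, SE 0.27). The larger change of miR-17-3p in the compound line stood beside a lower mean in that line's wild type. The adjusted p of the wild-type differences was 0.492 or more in edgeR for the members tested.

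miR-92a-3p was set against the other members within each library. Its log2 ratio over miR-19b-3p, the neighbouring hairpin on the same primary RNA and a member with an identical copy on chromosome X as well, was 4.97, 4.99, 4.97 and 4.34 in Xbp1-deficient libraries, against 4.24, 4.33, 4.12 and 4.30 in Xbp1-line wild-type libraries. It was 5.48, 4.16, 5.12 and 4.44 in compound-deficient libraries, against 4.16, 4.17, 4.56 and 4.17 in compound-line wild-type libraries. Xbp1-deficient replicates 1, 2 and 3 stood well above the wild types and replicate 4 just above them, whereas in the compound line deficient replicate 4 lay within the wild-type range and replicate 2 just below it. The mean difference was 0.57 in the Xbp1 line and 0.53 in the compound line.

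Over miR-20a-5p, the log2 ratio of miR-92a-3p was higher by 0.42 in the Xbp1 line and 0.33 in the compound line, and over miR-19a-3p by 0.63 and 0.52. Over miR-18a-3p the difference was -0.69 in the Xbp1 line and -0.39 in the compound line, lower in the deficient libraries. Over miR-17-3p it was 0.27 in the Xbp1 line and -0.34 in the compound line, and over miR-18a-5p it was -0.24 and 0.91, so both changed sign between the lines. No tested ratio passed, and miR-17-3p over miR-20a-5p changed by 0.15 and 0.67, miR-18a-5p over miR-20a-5p by 0.66 and -0.57, and miR-19b-3p over miR-20a-5p by -0.15 and -0.19, in the Xbp1 and the compound line. The smallest adjusted p of the 10 exact permutation tests was 0.571.

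**Figure D3:**
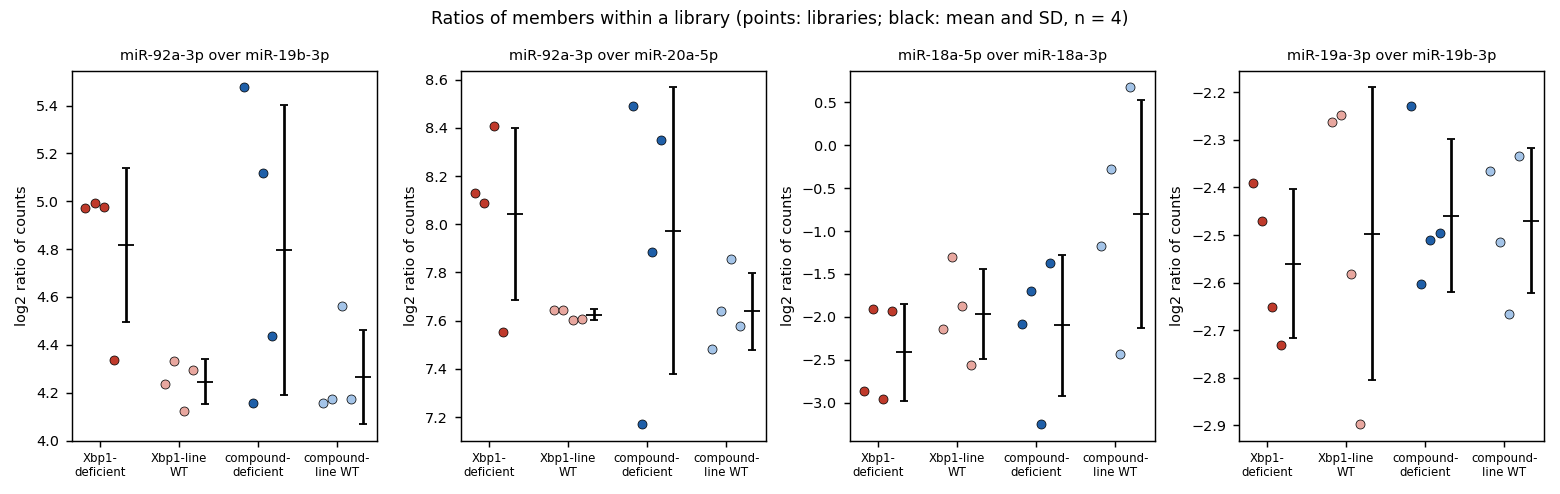
Log2 ratio of counts of 2 members within each library, with the mean and SD of each group (n = 4). miR-92a-3p over miR-19b-3p lay between 4.34 and 4.99 in Xbp1-deficient libraries, above all 4 wild types of that line, whereas the compound-deficient libraries spread from 4.16 to 5.48 and miR-19a-3p over miR-19b-3p overlapped everywhere. The lowest Xbp1-deficient library (replicate 4, 4.335) lay only just above the highest wild type of that line (replicate 5, 4.332).

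Across the 16 libraries, the log2 CPM of members correlated mostly positively. The 21 pairs had a median Pearson's r of 0.41, from -0.08 to 0.83, and 20 of them were positive, whereas the 32385 pairs of all tested microRNAs had a median of 0.0048 with 16388 positive. After the group means were removed, the median of the members' pairs was 0.14, from -0.48 to 0.69, with 14 positive, and that of all pairs was 0.011 with 16563 positive. The members' pairs include those with miR-92a-3p, whose higher level in both deficient groups was known when the cluster was selected. Correlations over all 16 libraries carry that difference between groups. The points share library, depth and scaling, so these values are descriptions.

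Pairs differed in whether they correlated within groups. miR-18a-3p and miR-92a-3p correlated most strongly over all libraries (r = 0.83, Spearman's rho = 0.87, and r = 0.88 without the 2 libraries farthest from the median), and had r = 0.52 within groups. Within groups the strongest pair was miR-18a-5p with miR-19a-3p, at r = 0.69 (0.57 over all libraries). miR-19a-3p and miR-19b-3p had r = 0.73 (rho = 0.65, and 0.75 without 2 libraries) and 0.68 within groups, and miR-20a-5p and miR-19b-3p had r = 0.70 (rho = 0.42, and 0.59 without 2) and 0.59 within groups. By contrast, miR-17-3p and miR-92a-3p had r = 0.64 over all libraries but -0.19 within groups, and miR-92a-3p and miR-19b-3p had 0.33 over all and -0.19 within groups. In the compound-deficient group, replicate 1 was the highest library for miR-92a-3p (87509 CPM), miR-18a-3p, miR-18a-5p and miR-17-3p, while replicate 2 was the highest for miR-19b-3p (2978 CPM), miR-20a-5p and miR-19a-3p. In the Xbp1-deficient group, replicate 4 was the lowest for miR-92a-3p (52161 CPM) and the highest for miR-19b-3p (2584 CPM), miR-20a-5p, miR-19a-3p, miR-17-3p and miR-18a-5p, so the members did not divide in the same way in both groups.

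**Figure D4:**
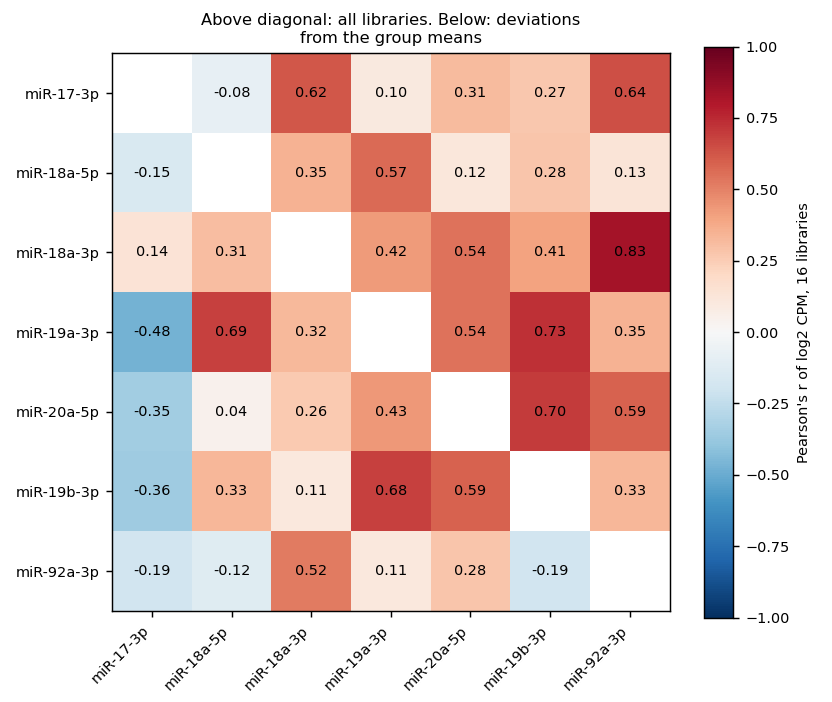
Pearson's r of log2 CPM between members over 16 libraries, above the diagonal, and of the deviations from the group means, below it. Within groups, miR-19a-3p, miR-20a-5p and miR-19b-3p correlated positively with each other (0.43 to 0.68), and miR-17-3p correlated negatively with each of them (-0.48 to -0.35).

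Position along the cluster did not order the changes. The larger mean changes were those of the first hairpin (miR-17-3p, 0.76), of the 3′ arm of the second (miR-18a-3p, 1.22) and of the last (miR-92a-3p, 0.77), with smaller ones between. The 2 arms of Mir18, whose centres lie at 207 and 247.5 nt from the start of the first hairpin, had mean changes of 0.30 and 1.22.

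Members differed in base composition. The 3 members with more than 50% G and C (54.5% to 57.1%) were miR-17-3p, miR-18a-3p and miR-92a-3p, and had mean changes of 0.76 to 1.22. The 4 members with 34.8% to 43.5% G and C had mean changes of 0.15 to 0.42. miR-92a-3p, on which the cluster was selected, was the highest in G and C. The split was noticed after the values were seen, and the part of base composition in the changes was not tested, since the base composition of the other microRNAs in the table was not available by identifier.

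**Figure D5:**
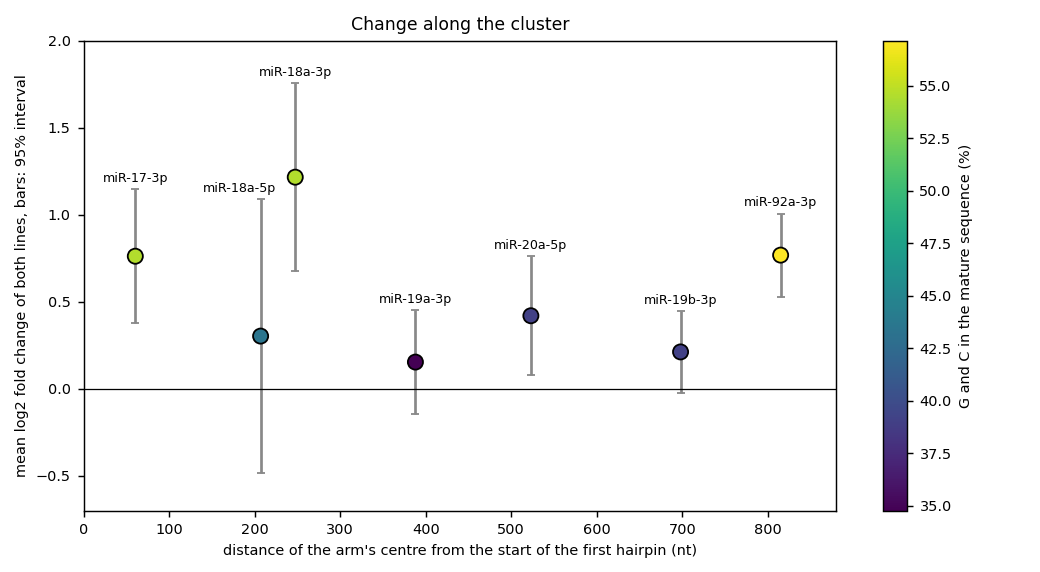
Mean log2 fold change over both lines, with its 95% interval, against the distance of each arm from the start of the first hairpin (nt), coloured by the share of G and C in the mature sequence. The 3 members above 50% G and C lay at 0.76 to 1.22 and the 4 others at 0.15 to 0.42, wherever they sat in the cluster. Intervals of some members above and below 50% G and C overlapped.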

How the data were processed

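Small RNA of 16 cDC1 libraries was sequenced, 4 in each of 4 genotype groups taken from the sample labels. Per the submitters' processing notes, the tools were Bowtie 1.1.2, cutadapt 1.8.1, limma 3.42.2 and FastQC 0.11.3, with builds mm10 and GRCm38; how mismatches and multiple hits were handled is not given in the sources used here. The authors deposited raw counts per miRBase identifier for 853 microRNAs, of which 45 were at 0 in every library, and a table of log2 values for 473. The deposited log2 values equal log2 CPM on TMM-scaled library sizes with a prior count of 0.5, as computed from the counts. Member names came with the list of members; no reference row holds a miRBase identifier, so the 23 listed relatives and the cell type markers could not be matched to rows, and the cell type was not checked.

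Counts were tested with edgeR 4.0.16 (R 4.3.3; TMM, filterByExpr with a count minimum of 10, 4 group means over 16 libraries, quasi-likelihood F test, Benjamini-Hochberg over 255 microRNAs, threshold 0.05); the 598 others were not tested. The fit was tested on simulated data with known changes. The common biological coefficient of variation was 31.2%, and every pair of replicates differed by more than sampling noise. Log2 CPM used a prior count of 1, and ratios added 0.5 to both counts. Alternatives were other scalings, filters, DESeq2 1.42.0, limma 3.58.1, the compared groups alone, a replicate block, a depth covariate and leaving out each library. All members are named whatever their values; non-members are named by the likeness of their pattern. Members, lists and tests were chosen with earlier results of these data known. Counts may include PCR copies, so counting error is a lower limit.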

Additional observations from a re-analysis of the deposited data

Results flagged for a closer look

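Of 48 groups of 4 values examined (levels of the 7 members and ratios), 1 held a library far from the others, and chance gives about 1 in 20 such groups. miR-18a-3p stood at 122.7 CPM in Xbp1-deficient replicate 2, against 195 to 207 CPM in the other 3 Xbp1-deficient libraries, a gap on the log2 scale of 0.891 of the group's range where the 95% critical value is 0.829. It still lay above all 4 Xbp1-line wild-type libraries, the highest of which had 103 CPM.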

How the results depend on the processing

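Across the alternatives no member's call turned direction, and the 90 ratio values stayed within the spread between replicates. The mean change of miR-18a-3p passed in 25 of 25 alternatives (1.03 to 1.32) and that of miR-17-3p in 24 of 25 (adjusted p = 0.102 in edgeR without the filter). In single lines miR-18a-3p passed in 5 of 18 alternatives in the Xbp1 line and 4 of 19 in the compound line, DESeq2 included (adjusted p = 0.0173 and 0.0494), and miR-17-3p in 8 of 19 in the compound line. The log2 fold change of miR-92a-3p ranged from 0.58 to 0.80 in the Xbp1 line and 0.58 to 0.90 in the compound line.

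Upper-quartile scaling moved the median of all microRNAs by -0.28 in the compound line and -0.39 for the difference of the changes, and the members' medians there became 0.30 and -0.22, and -0.12 between the deficient groups (0.12 as reported). It called 24 microRNAs in the compound line, 3 higher and 21 lower (9 and 6 as reported), and 3 for the difference. Total-count scaling shifted it by -0.10 and -0.12 in the 2 lines, with 8 higher and 11 lower in the compound line. Leaving out each library in turn gave medians of 0.30 to 0.68 in the compound line and 0.0024 to 0.19 for the difference, both lowest without compound-deficient replicate 2.

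The count of called microRNAs was 6 in the Xbp1 line, and 15 without the filter, 17 with DESeq2, 3 with limma on the deposited values, 11 on that line alone and 2 to 8 with a library left out. It was 15 in the compound line, and 1 with limma on the deposited values, 9 on that line alone, and 6 to 20 with a library left out. The difference gave 2 without the filter, and the mean of the changes 19, against 30 without the filter and 29 with DESeq2. Between the deficient groups it was 19, and 30 with DESeq2, 0 with limma on the deposited values, 8 on those groups alone, 3 with the depth covariate and 0 to 28 with a library left out. Between the wild types it was 0, and 14 without the filter, 3 with DESeq2, 2 on those groups alone and 0 to 2 with a library left out. The causes were not tested.

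Same-numbered replicates deviated together weakly or not at all (r = 0.11, -0.26, 0.26 and 0.01 in the compound line, 0.04, -0.07, 0.10 and 0.08 between the deficient groups). The labels do not say whether the numbers pair samples, and these correlations cannot exclude it. With the replicate block the compound line had 4 calls and miR-17-3p kept 1.09 (adjusted p = 0.198 in edgeR); the block gave 19 calls between the deficient groups, with a members' median of 0.12. Depth limits miR-18a-5p and miR-17-3p most, at 4 to 57 and 8 to 103 counts a library.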

Other observations

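Among 110 other microRNAs with at least 100 CPM, those whose log2 CPM followed the mean of the members' standardised levels most closely over the 16 libraries are given by identifier, since the files do not pair them with names. MIMAT0000670 had Pearson's r = 0.84 and Spearman's rho = 0.84 (r = 0.76 without the 2 farthest libraries) at a mean of 8897 CPM. Its log2 fold changes were 0.34 in the Xbp1 line and 0.52 in the compound line, with adjusted p = 0.472 and 0.158 in edgeR. MIMAT0004583 had r = 0.83 and rho = 0.87 (0.77 without 2) at 612 CPM; its log2 fold change was 0.55 in the Xbp1 line (edgeR adjusted p = 0.0793) and 0.65 in the compound line (adjusted p = 0.0174). MIMAT0017066 had r = 0.80 and rho = 0.80 (0.70 without 2) at 237 CPM; it differed by 0.61 in the Xbp1 line (edgeR adjusted p = 0.236) and by 1.11 in the compound line (adjusted p = 0.0128). MIMAT0003454 came next, with r = 0.69 and rho = 0.74 (0.58 without 2) at 6678 CPM. Its log2 fold changes were 0.11 in the Xbp1 line and 0.08 in the compound line (edgeR adjusted p = 0.735 and 0.783). MIMAT0000384 followed with r = 0.66 and rho = 0.65 (0.71 without 2) at 2172 CPM. Its log2 fold changes were 0.51 and 0.25 in these lines (edgeR adjusted p = 0.253 and 0.628). The points share library, depth and scaling, so these values describe likeness only.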
